A study of Mus musculus with 5 samples.

Results

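Sites of the transcription factor EBF1 that the authors had put in a class named CTD-ind, and that lie away from the ends of genes, were examined in mouse pro-B cells. Members were the CTD-ind sites whose centre was 1000 bp or more from both ends of every RefSeq gene of any type on the GRCm38 chromosomes. They numbered 1661 of the 2550 CTD-ind sites and of the 7494 sites of the list. The other 889 CTD-ind sites lay closer to a gene end. Members were thus chosen by the authors' class and by the distance to gene ends, and neither is a finding here. Sites away from gene ends in the list's other classes, 3435 named YmA-ind and 790 named YmA-dep, served for comparison.

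EBF1 is a DNA-binding protein that, with E proteins and Pax5, sets up the B-lymphocyte programme. It can bind closed chromatin and it works both at promoters and at distant enhancers. It binds DNA as a dimer, at a palindrome around the core CCCNNGGG. Pro-B cells are early B-lineage cells that depend on interleukin-7, and the pre-B-cell receptor carries them to the pre-B stage.

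The series comprised 5 chromatin libraries of pro-B cells, 1 per group. All came from fetal liver cells of Ebf1-/- mice, to which wild-type EBF1 or a form named YmA had been returned by transduction, so every EBF1 protein came from a transgene. The groups were EBF1 ChIP with EBF1 wt, EBF1 ChIP with YmA, BRG1 ChIP with YmA, and an input for each antibody, both labelled EBF1 wt. Only the EBF1 ChIP of EBF1 wt entered here, as 1 list of positions, each 300 bp wide. The list carries no height, score or count, so site strength and read depth are unknown, there is no replicate, and pro-B identity could not be checked from expression. No source used here says how the classes were made or what their names mean. All p-values are from two-sided Fisher's exact tests over sites, which are not replicates of a culture. They describe this list, and are given with differences in percentage points and with Benjamini-Hochberg adjustment over 14 contrasts.

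No genome was used here, so sequence was at hand only where a site met a RefSeq start window, the stretch from 250 bases before to 50 bases after a transcription start. Some members did so, because RefSeq lists starts inside longer genes. The stretches below are shown because they carry the EBF palindrome within member sites at such internal starts. Each runs 5′ to 3′ on the strand of its gene and ends before the start, and holds only bases within the EBF1 site (RefSeq, GRCm38.p6). Capitals mark matches to the core CCCNNGGG, or to the full EBF palindrome, which is that core with a T before it and an A after it. Both motifs read the same on the other strand, and every palindrome also counts as a core. The stretches are Aktip at chr8:91134102-91134277 on the minus strand, Cd22 at chr7:30879029-30879225 on the minus strand, N4bp2l1 at chr5:150594559-150594775 on the minus strand, Mier1 at chr4:103119140-103119389 on the plus strand, Capzb at chr4:139193861-139194097 on the plus strand and Tbc1d1 at chr5:64160010-64160259 on the plus strand. They were chosen after their values were seen, as those with the palindrome nearest to the site's centre.
Aktip: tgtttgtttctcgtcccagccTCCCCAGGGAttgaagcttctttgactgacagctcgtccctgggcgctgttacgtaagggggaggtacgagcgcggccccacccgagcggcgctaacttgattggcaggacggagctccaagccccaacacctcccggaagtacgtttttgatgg
Cd22: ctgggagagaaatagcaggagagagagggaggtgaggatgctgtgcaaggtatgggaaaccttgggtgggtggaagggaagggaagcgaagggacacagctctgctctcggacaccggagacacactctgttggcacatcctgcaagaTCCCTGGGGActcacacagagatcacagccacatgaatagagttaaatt
N4bp2l1: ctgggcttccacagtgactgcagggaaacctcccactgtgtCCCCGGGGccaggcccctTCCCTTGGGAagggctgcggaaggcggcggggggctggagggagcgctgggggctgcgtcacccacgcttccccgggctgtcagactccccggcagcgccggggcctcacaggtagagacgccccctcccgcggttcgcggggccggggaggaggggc
Mier1: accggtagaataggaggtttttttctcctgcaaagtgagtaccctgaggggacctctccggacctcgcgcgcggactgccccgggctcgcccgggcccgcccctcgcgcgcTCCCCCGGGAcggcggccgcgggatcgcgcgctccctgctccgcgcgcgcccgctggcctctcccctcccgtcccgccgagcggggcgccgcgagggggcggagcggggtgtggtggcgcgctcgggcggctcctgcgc
Capzb: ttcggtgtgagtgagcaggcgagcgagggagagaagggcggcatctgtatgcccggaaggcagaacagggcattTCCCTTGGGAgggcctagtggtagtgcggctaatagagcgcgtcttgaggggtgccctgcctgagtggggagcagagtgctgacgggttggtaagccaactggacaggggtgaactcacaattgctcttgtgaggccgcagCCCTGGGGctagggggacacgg
Tbc1d1: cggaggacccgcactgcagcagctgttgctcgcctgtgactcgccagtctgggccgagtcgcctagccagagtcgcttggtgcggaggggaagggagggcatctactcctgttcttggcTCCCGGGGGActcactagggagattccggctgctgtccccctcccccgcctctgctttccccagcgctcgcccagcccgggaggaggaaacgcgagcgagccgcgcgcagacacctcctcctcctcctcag

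In these 6 stretches the palindrome lay 0 bp (Aktip), 3 bp (Cd22), 3 bp (N4bp2l1), 4 bp (Mier1), 8 bp (Capzb) and 11 bp (Tbc1d1) from the centre of the EBF1 site. The internal starts themselves were 1.47, 1.31, 4.15, 5.07, 1.21 and 3.96 kb from the nearest gene end. Cd22 encodes an inhibitory co-receptor of the B-cell receptor. Capzb encodes a subunit of the protein that caps actin filaments, and Tbc1d1 a regulator of Rab GTPases.

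Internal starts, defined as RefSeq starts 1000 bp or more from every gene end, made up 4729 of the 32619 start windows matched to the chromosome genes. Members overlapped such a window at 46 sites in 46 genes (2.77%, 95% exact interval 2.03 to 3.68%). The share was 0.728% for YmA-ind (25 sites) and 0.759% for YmA-dep (6 sites). The difference was 2.04 points from YmA-ind (odds ratio 3.89, exact p = 2.62e-08, adjusted exact p = 3.67e-07) and 2.01 points from YmA-dep (odds ratio 3.72, exact p = 0.000799, adjusted exact p = 0.00284). With sites and starts held 2500 bp or more from gene ends, the difference from YmA-dep was 1.32 points and no longer passed (adjusted exact p = 0.0849). This measure was chosen after the data were seen. CTD-ind sites are also the class richest in gene ends, so it is not independent of that known pattern.

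Of the 46 member sites, 31 were centred upstream of the internal start, with a median of 102.5 bp upstream and a range from 304 bp upstream to 172 bp downstream. The start window reaches farther upstream than downstream, so choosing sites by overlap with it favours upstream centres. Upstream centres were also found for 18 of the 25 YmA-ind and 4 of the 6 YmA-dep sites. A preference of members for the upstream side was not tested. The internal starts that members overlapped lay a median of 2.98 kb from the nearest gene end, and 33 of the 46 lay within 5 kb of one. At 7 of the 46 the start was more than 10 kb from any gene end. The site at Ablim1, which encodes an actin-binding protein, was at a start 86.3 kb from any gene end, and that at Atp2b2, a calcium pump gene, at 113 kb. Further genes with such a site, picked after their values were seen, were Foxp1, Rassf5, Rreb1, Mxi1, Brd2 and H2-DMb2. At Foxp1, a forkhead factor gene of early B cells, the site was 252 bp upstream of an internal start. At Rassf5, a Ras effector gene in lymphocyte adhesion, it was 36 bp downstream.

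**Figure D1:**
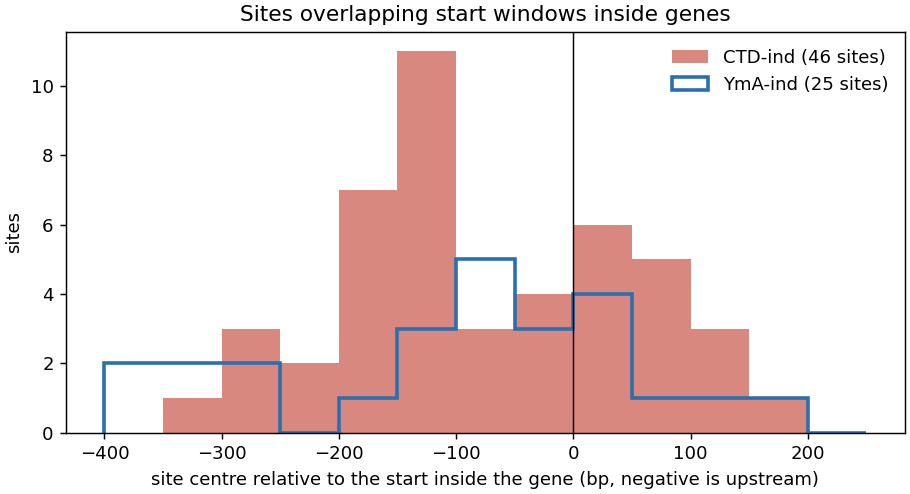
Number of sites (vertical axis) by the distance in bp of the site's centre from a RefSeq start inside a gene (horizontal axis, negative is upstream), in 50 bp bins, for the 46 CTD-ind and 25 YmA-ind sites that overlap such a start window. Left of the line at the start are 31 of 46 CTD-ind and 18 of 25 YmA-ind sites, the side that the start window favours.

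The full palindrome was found in 13 of the 50 internal start windows that a member overlapped (26%, exact interval 14.6 to 40.3%). These windows came from 46 genes, so some overlap one another, and the interval takes no account of that. Among all internal start windows, including these, the palindrome was found in 66 of 4729 (1.40%), and among all start windows of the same 300 bases in 0.907%. The core was in 34 of the 50 windows (68%), against 14.9% of internal windows and 13.8% of all windows. Of the 26 internal windows that a YmA-ind site overlapped, 2 held the palindrome (7.69%, 0.946 to 25.1%) and 8 the core. Within the bases that the EBF1 site shared with a start window, 13 of 46 members had the palindrome, 10 of them within 50 bp of the centre. The core was there in 27, in 23 of them within 50 bp. The rest of each site could not be read, so these counts may be too low for whole sites. These are matches of letters in windows and were not tested between classes.

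Members were mostly inside genes. Of the 1661, 976 were centred in a protein-coding gene (58.8%, exact interval 56.3 to 61.1%) and 137 only in a gene of another type (8.25%), 129 of these in lncRNA genes. The remaining 548 lay between genes (33.0%, 30.7 to 35.3%). The share inside any gene was 67.0% (64.7 to 69.3%), with 65.4% for YmA-ind and 66.3% for YmA-dep. It was 1.56 points above YmA-ind (adjusted exact p = 0.362) and 0.679 points above YmA-dep (adjusted exact p = 0.806), neither past the threshold, and both signs turned with a limit of 2500 bp. Exons and introns could not be told apart with the gene table used here.

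The distance from a member to the nearest gene end had a median of 6.97 kb, with quartiles of 2.84 and 16.1 kb. Members were thus packed toward the limit that defined them. From 1 to 2.5 kb there were 359 sites (21.6%), and beyond 100 kb there were 16 (0.963%). YmA-ind and YmA-dep had medians of 8.91 and 10.1 kb. The rule used this distance, so these values are a description. Just inside the limit were a site on chromosome 12 at 1004 bp from an end of Gm40491 (86829943 to 86830242), one on X at 1005 bp from Msn (96096901 to 96097200) and one on chromosome 15 at 1014 bp from Lratd2 (60824942 to 60825241). Just outside were CTD-ind sites on chromosome 3 at 997 bp from Gm40125, on 19 at 994 bp from Gm35406 and on 11 at 991 bp from Gm24917. From 750 to 1000 bp there were 107 CTD-ind sites, and from 1000 to 1250 bp there were 79, so the limit cut through a continuous range.

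**Figure D2:**
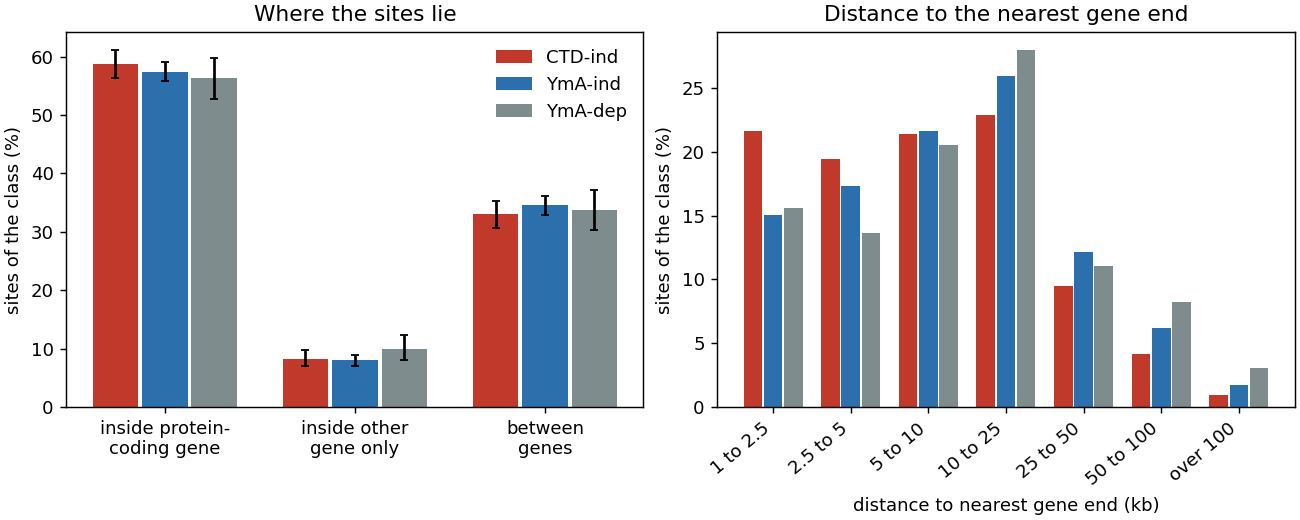
Share of sites (%) by location (left, error bars are exact 95% binomial intervals) and by distance in kb to the nearest end of any gene (right) for sites away from gene ends in 3 classes. The classes have similar shares inside genes, and CTD-ind has the largest share at 1 to 2.5 kb (21.6%).

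Inside protein-coding genes, members were in the first part of the gene more often than YmA-ind sites were, by a margin that did not hold farther from gene ends. Strand was known for the host gene of 778 of the 976 members, and 458 of these were in the first 50% of the gene (58.9%, exact interval 55.3 to 62.4%). The share was 51.5% (800 of 1553) for YmA-ind and 55.6% (194 of 349) for YmA-dep. The difference from YmA-ind was 7.36 points (odds ratio 1.35, exact p = 0.000811, adjusted exact p = 0.00284), and that from YmA-dep was 3.28 points (adjusted exact p = 0.382). With a limit of 2500 bp the difference from YmA-ind fell to 4.11 points and no longer passed (adjusted exact p = 0.169). The members were chosen by distance to gene ends and CTD-ind counts fell across the limit, so this measure is not independent of the rule. Without sites near internal starts the difference was 5.45 points (adjusted exact p = 0.0437). The first 10% of the gene's length held 15.3% of members and the next 10% held 13.8%, while the last 10% held 9.51% and the stretch before it 7.33%. Members were a median of 19.0 kb from the start, YmA-ind sites 30.1 kb and YmA-dep sites 29.2 kb, and the members' host genes were shorter, with medians of 65.3, 78.3 and 87.2 kb.

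**Figure D3:**
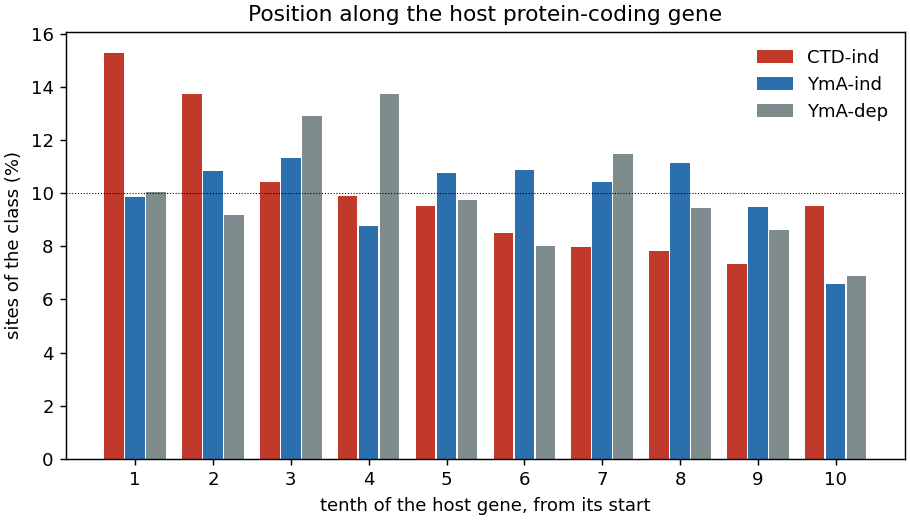
Share of sites (%) in each 10% of the length of the host protein-coding gene, counted from its start, for 778 CTD-ind, 1553 YmA-ind and 349 YmA-dep sites away from gene ends. The dotted line marks an even spread of 10% of sites per stretch. CTD-ind stands highest in the first stretch (15.3%).

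Most host genes held a single member. The 976 members inside protein-coding genes fell in 813 genes when each site was given to the shortest gene around it, and 694 of these genes held 1 member, 90 held 2, 21 held 3, 3 held 4, 4 held 5 and 1 held 7. The 119 genes with 2 or more (14.6%, exact interval 12.3 to 17.3%) took 282 members (28.9%). They had a median length of 106 kb, against 51.3 kb for genes with 1 member and 17.4 kb for all protein-coding genes. Of the YmA-ind host genes, 356 of 1431 held 2 or more sites of that class away from gene ends (24.9%, median length 108 kb). For YmA-dep it was 38 of 400 (9.5%, 213 kb), and these shares were not tested. Of the 813, 276 genes also held a YmA-ind site away from gene ends (33.9% of these genes and 19.3% of the YmA-ind host genes). For YmA-dep the overlap was 95 genes (11.7% and 23.8%). Over all 21521 protein-coding genes, 1431 were hosts of YmA-ind sites away from gene ends and 400 of YmA-dep ones. Sharing was thus more frequent among the members' host genes than over all genes. Host genes were also longer than protein-coding genes as a whole, and the sharing was not tested. In 498 of the 813 genes, CTD-ind was the sole class inside and away from ends.

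Hip1, which encodes a clathrin adaptor of endocytosis, held the most, with 7 members on chromosome 5 (135419119 to 135494399). Their gaps ran from 8.70 to 16.4 kb, so they were spread rather than stacked, at 51.1 to 126 kb from the start of a gene of 139 kb. The only site of another class inside Hip1 and away from gene ends was a YmA-ind site at 44.4 kb from the start, before the run of members. Rai1, a gene of a chromatin-associated transcriptional regulator, showed the opposite layout. Its 5 members lay within 14.5 kb of chromosome 11, with gaps from 0.759 to 7.63 kb, at 70.5 to 85.0 kb from the start. Zmiz1, which encodes a transcriptional co-regulator related to the PIAS proteins, held 5 members on chromosome 14. A pair 0.705 kb apart sat at 2.51 and 3.22 kb from its start (25460236 to 25460535 and 25460941 to 25461240), and the other three were at 41.8, 68.2 and 89.2 kb.

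The 5 members in Trio, a gene of a guanine nucleotide exchange factor, spread over 129 kb, 113 to 242 kb from the start. In Col26a1, a collagen gene on chromosome 5, 3 of the 5 lay 0.955 and 0.992 kb from one another. Cux1, which encodes a homeodomain transcription factor, held 4 members over 272 kb. A pair 5.35 kb apart lay toward the other end, 312 and 318 kb from the start, and the rest at 45.9 and 123 kb. The 4 members in Hivep3, a zinc-finger factor gene, lay 226 to 321 kb from its start. 2900026A02Rik also held 4 members, and Auts2, Cplx2, Cradd and Cxxc5 held 3 each. Hosts with several were not all long. Cxxc5, which encodes a CXXC zinc-finger protein, spans 32.3 kb, and Auts2, a nuclear regulator gene, spans 1106 kb. Neither Cradd nor Cxxc5 held a site of another class away from gene ends, whereas Hivep3 and Zmiz1 held 5 YmA-ind sites each.

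**Figure D4:**
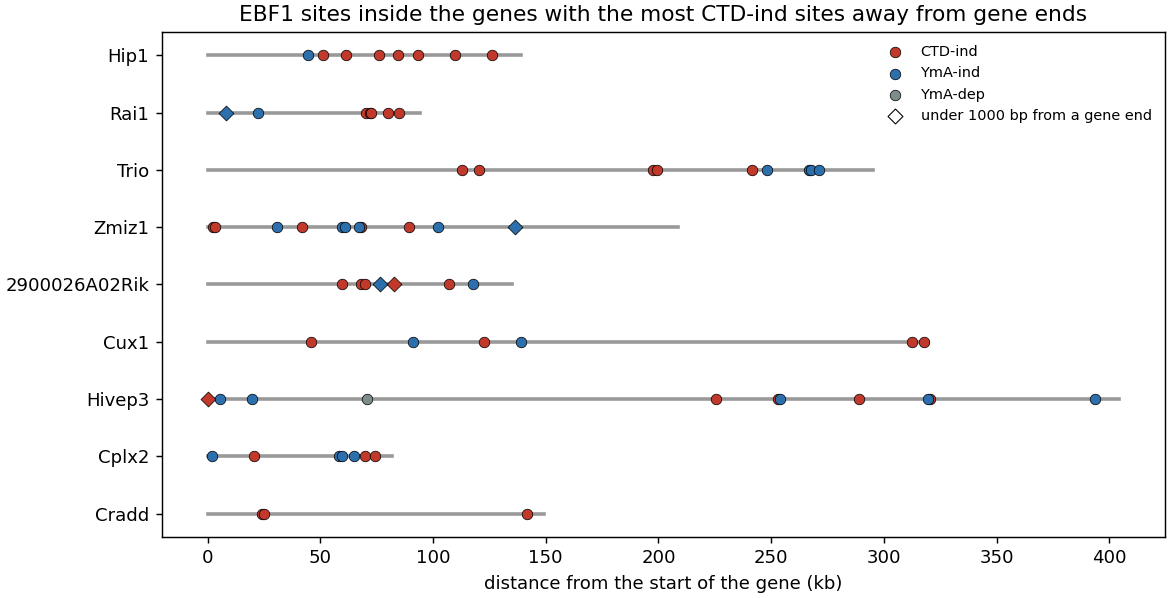
Sites along the host gene, by distance in kb from its start, for the 9 of the 12 protein-coding genes with most members whose strand is known. Each line spans the length of the gene. Circles show CTD-ind, YmA-ind and YmA-dep sites away from gene ends. Diamonds show sites of any class under 1000 bp from an end of any gene. Members of Rai1 crowd together, while those of Hip1 are spread.

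Whether a gene with a member inside also has a site at its own end was counted next. Of the 813 host genes, 57 had a CTD-ind site within 1000 bp of one of their ends (7.01%, exact interval 5.35 to 8.99%), and 88 had a site of any class there (10.8%). Over all protein-coding genes these shares were 3.87% and 5.96%. Most host genes, 725 of 813, thus had no site at an end. The 57 genes were 6.85% of the 832 genes with a CTD-ind end site. In 39 genes the end site was at the start, in 9 at the other end, Ubtd1 being counted in both, and 10 genes have no strand in the tables used.

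Host genes of the other classes had CTD-ind end sites about as often, 104 of 1431 for YmA-ind (7.27%) and 22 of 400 for YmA-dep (5.5%). Counted per site, 7.38% of members had a host with a CTD-ind end site, which was 1.23 points below YmA-ind (8.61%, adjusted exact p = 0.362) and 2.21 points above YmA-dep (5.17%, adjusted exact p = 0.213). For end sites of any class the share was 10.9%, 2.26 points below YmA-ind (adjusted exact p = 0.150) and 0.524 points above YmA-dep (adjusted exact p = 0.853). None of these 4 contrasts passed the threshold, which does not show that the shares are equal. By length, the share of host genes with a CTD-ind end site was 8.61% under 25 kb (18 of 209), 6.88% from 25 to 50 kb (11 of 160), 7.22% from 50 to 100 kb (13 of 180), 4.85% from 100 to 200 kb (8 of 165, 2.12 to 9.33%) and 7.07% from 200 kb (7 of 99). All protein-coding genes of those lengths gave 3.60%, 4.44%, 4.75%, 3.90% and 2.93%, so the gap was smallest from 100 to 200 kb. Genes with 2 members had an end site in 3 of 90 cases (3.33%), those with 3 or more in 3 of 29 (10.3%) and those with 1 in 51 of 694 (7.35%).

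Among the named genes with both kinds of site, Hip1 had its CTD-ind end site 391 bp outside the start (chromosome 5, 135545565 to 135545864). At Cux1 the end site was instead at the other end, 331 bp outside the gene (136247655 to 136247954) and 2.07 kb from the nearest member. At Hivep3 it was 135 bp inside the start. Alpl, which encodes alkaline phosphatase, Rgl1, a gene of a Ral exchange factor, and Vps8, a gene of endosomal transport, each held 2 members and had an end site 252 bp inside, 215 bp outside and 8 bp outside the start. They were picked after their values were seen. Plcg2, which encodes the phospholipase downstream of the B-cell receptor, had an end site 331 bp inside its start and a member at 1.11 kb, 0.781 kb further on. Bcl7c, a subunit gene of the BAF remodelling complex, had an end site 508 bp inside its start and a member at 1.33 kb. End sites at Bcl7a (75 bp outside), Fli1 (314 bp inside) and Rac2 (133 bp outside) were at genes whose strand is not listed.

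The starts of Rgl1 and Vps8 are shown as a pair that both had an end site but whose stretches before the start differed in the motif. The stretches lie before the gene's start and within the end site, at chr1:152766374-152766555 on the minus strand and chr16:21422961-21423117 on the plus strand, with capitals as above.
Rgl1: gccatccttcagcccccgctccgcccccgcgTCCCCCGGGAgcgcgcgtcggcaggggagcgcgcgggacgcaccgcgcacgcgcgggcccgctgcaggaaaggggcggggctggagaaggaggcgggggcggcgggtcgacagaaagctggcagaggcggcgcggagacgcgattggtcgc
Vps8: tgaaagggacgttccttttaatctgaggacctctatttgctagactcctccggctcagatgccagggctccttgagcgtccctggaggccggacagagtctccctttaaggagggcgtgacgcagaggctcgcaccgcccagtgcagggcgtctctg

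The stretch of Rgl1 held 1 palindrome, 4 bp from the centre of its site, and that of Vps8 held neither palindrome nor core. The stretches cover 182 and 157 of the 300 bp of their sites, so they do not show whether the rest of either site holds a motif. Start windows of host genes whose start lay under 1000 bp from an end of any gene were counted next. A CTD-ind site overlapped 18 of them, of which 3 held the palindrome (16.7%, exact interval 3.58 to 41.4%) and 10 the core (55.6%). Over all 554 such start windows of host genes, these counts were 12 (2.17%) and 135 (24.4%).

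Members had other EBF1 sites close by more often than YmA-ind sites did. Another site of any class was centred within 12500 bp of 686 members (41.3%, exact interval 38.9 to 43.7%), against 37.1% of YmA-ind sites (4.15 points, odds ratio 1.19, exact p = 0.00472, adjusted exact p = 0.0110) and 37.6% of YmA-dep sites (3.71 points, adjusted exact p = 0.150). In runs of 3 or more sites with gaps under 12500 bp were 314 members (18.9%, 17.0 to 20.9%), against 15.4% for YmA-ind (3.53 points, odds ratio 1.28, adjusted exact p = 0.00472) and 12.4% for YmA-dep (6.50 points, odds ratio 1.65, exact p = 5.01e-05, adjusted exact p = 0.000350). With a distance of 5 kb, the differences from YmA-ind fell to 2.54 points (adjusted exact p = 0.105) and 1.27 points (adjusted exact p = 0.150) and no longer passed. Sites of the same run share these properties but were counted separately, and the p-values and intervals take no account of that. No count by run was made for these measures.

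The nearest of these neighbours was YmA-ind for 351 members (51.2%), CTD-ind for 259 (37.8%) and YmA-dep for 76 (11.1%). CTD-ind made up 2550 of the 7494 sites of the list (34.03%). It was the nearest neighbour's class for 31.5% of YmA-ind and 31.0% of YmA-dep sites with a neighbour, and these shares were not tested. For 101 members (14.7%) the neighbour lay under 1000 bp from a gene end. CTD-ind sites at gene ends had a neighbour within 12500 bp in 265 of 889 cases (29.8%, 26.8 to 32.9%), and 37.7% of those neighbours lay at a gene end. No members overlapped, and 18 pairs of neighbouring members were under 1 kb apart. The closest were 557 bp apart in Cenps, a centromere protein gene on chromosome 4 (149131703 to 149132559), 573 bp apart in Gm30149, which is not protein-coding, on chromosome 7 (73594548 to 73595420) and 579 bp apart between genes on chromosome 5 (32412504 to 32413382).

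**Figure D5:**
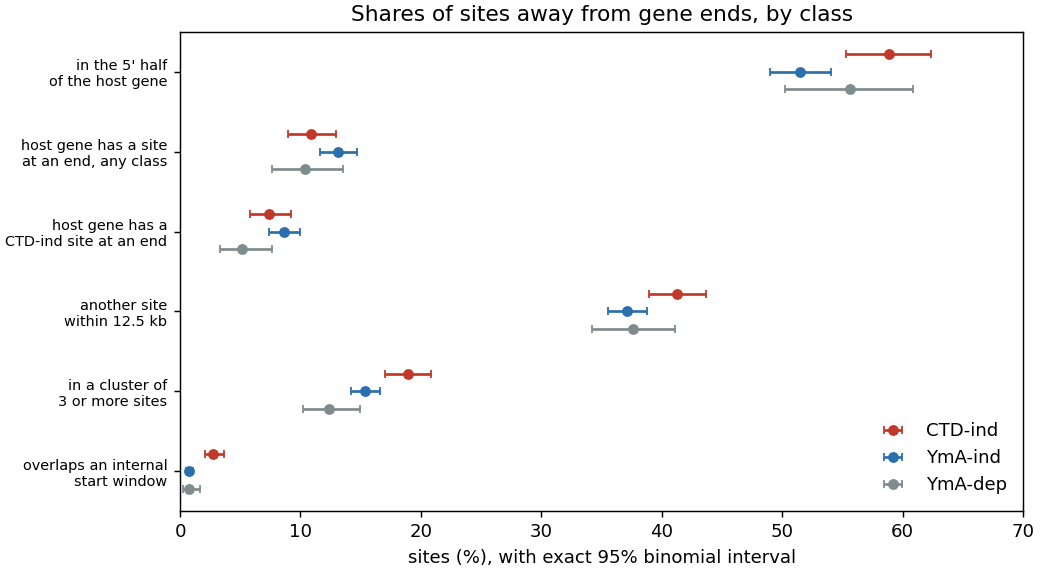
Share (%) of sites away from gene ends with each property, by class, with exact 95% binomial intervals as bars. CTD-ind stands above both other classes for clusters of 3 or more sites (18.9%) and for overlap with an internal start (2.77%).

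Genes of 3 lists of the early B lineage held members in larger shares than protein-coding genes as a whole did. Over all protein-coding genes, 3.82% held a member (822 of 21521, counting every gene around a site). Of 30 B-lineage transcription factor genes, 14 held at least 1 (46.7%), of 30 genes of pre-BCR and BCR signalling 9 (30%), and of 25 genes of the IL-7 receptor, PI3K and survival 6 (24%). Many of these genes are long, and all protein-coding genes in the same length bins held a member in 7.51%, 6.52% and 5.14% of cases. The lists were written with earlier results of these data known, and the list of sites as a whole is already known to be rich in such genes, so the counts are a description with no test. The 29 genes held 43 members, and 3 of them, Cux1, Fli1 and Plcg2, also had a CTD-ind end site.

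Among the transcription factors, Foxp1 held 3 members, at 1501 bp, 109 kb and 184 kb from its start. Erg, a gene of an ETS factor of blood stem cells, held a pair 1.63 kb apart, 157 and 158 kb from the start. Tcf4, which encodes the E protein E2-2, held 2 members 120 kb apart, and Tcf3, the gene of E2A, held 1 at 4.10 kb. In Pax5, the gene that maintains B-cell identity, the member lay 4.52 kb from the start on chromosome 4 (44706027 to 44706326). In Irf4, which promotes the pre-B stage, it lay at 2.13 kb on chromosome 13 (30751214 to 30751513). In Bach2, a repressor gene of plasma cell fate, it lay at 1.32 kb, and the nearest other site of any class was 241 kb away. Irf8 held 1 at 11.2 kb, Pou2f1 at 10.6 kb, Pou2f2 at 50.9 kb and Runx1 at 204 kb, and Fli1, whose strand is not listed, held 1. Ebf1 itself held 1 member, 275 kb from its start on chromosome 11 (44893150 to 44893449). Where the strand is listed, distances in this list ran from 1.32 kb in Bach2 to 318 kb in Cux1, described above.

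In receptor signalling, several members sat soon after the start. They were at 1.27 kb in Cd22, at 1.11 kb in Plcg2 and at 1.73 kb in Inpp5d, the gene of the lipid phosphatase SHIP1, which held another at 38.0 kb. The Cd22 member was also centred 47 bp upstream of an internal start. Others were deep inside. Bank1, an adaptor gene, held a pair 1.72 kb apart at 23.4 and 25.1 kb, and Prkcb, the gene of protein kinase C beta, held members at 63.8 and 101 kb. Vav2, an exchange factor gene, held 1 at 116 kb and Btk, the gene of Bruton's kinase, 1 at 16.9 kb on X. The kinase gene Lyn, whose strand is not listed, held 1. In the IL-7 and survival list, Stat5b, which relays IL-7 signals, held members at 8.89 and 15.5 kb. The survival genes Bcl2 (51.1 and 159 kb) and Bcl2l1 (17.8 and 44.5 kb) held 2 each. Pik3cd, the gene of a lymphocyte PI3-kinase subunit, held 1 at 5.82 kb, the cyclin gene Ccnd3 1 at 89.3 kb, and Socs2, a feedback inhibitor of cytokine signals, 1.

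The remaining lists held smaller shares. Of 26 genes of B-cell surface, adhesion and homing, 1 held a member (3.85%), Itgal, the gene of the LFA-1 alpha chain. None of 10 recombination and end-joining genes did. Genes of the same lengths gave 3.41% and 6.35%. With 10 kb around each gene, where the share of all genes was 6.1%, these counts were 2 and 1, the latter at Rag2. Of 24 BAF complex genes 2 held a member (8.33%, Bcl7a and Bcl7c), where genes of the same lengths gave 5.30%. Among genes of other cell types, 2 of 20 for T, NK and innate lymphoid cells held a member (10%, Il2ra and Zap70), where genes of the same lengths gave 4.10%. The count was 1 of 16 for myeloid cells (6.25% against 2.50%, Itgam) and 1 of 14 for erythroid cells and megakaryocytes (7.14% against 2.73%, Itga2b). It was 1 of 15 for neurons (6.67% against 9.20%, Tubb3) and 0 of 15 for hepatocytes (against 3.41%). Each of these counts is 2 or fewer.

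Of the 548 members between genes, 513 lay within 100 kb of a protein-coding gene, and these were nearest to 459 such genes, 46 of which had 2 or more. The median distance was 14.3 kb over all 548. Beyond the start of the nearest gene lay 230, beyond its other end 191, and for 127 no strand was listed. Cux1 had the most, 4 members 16.6 to 30.6 kb beyond its start, so that 8 members had Cux1 as host or nearest gene. Its neighbour Myl10, a myosin light chain gene, had 3 at 1.07 to 15.1 kb. Tspoap1 had 3 at 2.75 to 6.45 kb. For 2 of these, 711 bp apart on chromosome 11 (87754586 to 87755596), the hairpin of Mir142, a microRNA of blood cells, was nearer, at 2.13 and 1.42 kb. Uncx, a homeobox gene, had 3 at 22.9 to 31.1 kb, Med13l, of the Mediator kinase module, 3 at 3.64 to 77.2 kb, the claudin gene Cldn4 3 at 13.7 to 16.7 kb, the bradykinin receptor gene Bdkrb2 3 at 1.66 to 15.8 kb, and Capn11, a calpain gene, 2. The members farthest from any gene were on chromosome 4 (67232746 to 67233045, 286 kb), chromosome 9 (33482933 to 33483232, 221 kb), chromosome 13 (35460040 to 35460339, 167 kb) and X (11747865 to 11748164, 102 kb).

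Across chromosomes, members were densest on chromosome 5, with 178 (14.3 per 100 protein-coding genes), where Hip1, Cux1, Col26a1, Auts2 and 2900026A02Rik lie. They were sparsest on X, with 10 (1.04 per 100), and the autosomes together had 8.03 per 100. Sites of all classes away from gene ends had the same extremes, with 38.6 per 100 genes on chromosome 5, 4.98 on X and 28.4 on the autosomes. Members made up 37.1% of those sites on chromosome 5, the highest share of any chromosome, and 20.8% on X, the lowest. These shares were not tested. On X, 41.7% of the 24 CTD-ind sites were members, against 55.4 to 74.5% on the autosomes. The X share rests on 10 of 24 sites, and the difference was not tested. Over the whole list, 1661 of 7494 sites were members. In the antigen receptor arrays the ends of gene segments count as gene ends, so the rule itself bears on the counts there. Of 57 sites of all classes in the Igk array 3 were members, of 14 in Igh 2, of 7 in Tra and Trd 2, and none of the 4 in Trb or the 1 in Igl.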

How the data were processed

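EBF1 ChIP-seq was run on pro-B cells. Of 5 libraries, 1 entered with a file, and the other 4 were not analysed here. The authors deposited a list of site positions in bp with a text class, and no count, score or p-value per site. Per the submitters' processing notes, Bowtie2, SAMtools and deepTools were used with GRCm38 (mm10). No source used here names the peak caller or its thresholds. Depth is unknown.

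Centres were compared with the RefSeq gene table (GRCm38.p6), keeping 49209 chromosome genes, 21521 of them protein-coding, and leaving out 345 scaffold genes. A host was the shortest protein-coding gene around a centre. Strand and start sequences came from RefSeq start windows, which cover 17274 of the protein-coding genes. All 250 list genes matched by symbol or synonym. Shares have exact (Clopper-Pearson) 95% intervals, which cover counting error only. Fisher's exact tests and intervals used SciPy 1.17.1 under Python 3.11.15, with an adjusted threshold of 0.05. Code was checked on simulated lists.

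The members, lists and measures were chosen with earlier results of these data known. The text names the 12 genes with most members, list genes with a member (up to 5 for lists outside the B lineage), the 8 genes nearest to most intergenic members, the 8 of these with a CTD-ind end site that hold most members, the farthest and closest members and those at the limit. Alternatives varied the limit, the host, the neighbour distance, the genes counted and the motif. Internal starts, their motifs and their alternatives were added after the data were seen. The results of 1 list and of 1 list gene are not reported here by name.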

Additional observations from a re-analysis of the deposited data

How the results depend on the processing

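Of 54 alternative values of the class contrasts, 44 kept their sign and their side of the threshold, 4 lost it, 1 gained it and 5 turned sign. The cause was not tested. With 2500 bp from gene ends in place of 1000 bp, the share inside a gene was -0.0641 points from YmA-ind and -0.829 from YmA-dep, the share in the first 50% of the gene 54.4%, 4.11 points above YmA-ind (adjusted exact p = 0.169) and -3.08 from YmA-dep, and the internal start difference from YmA-dep 1.32. With 500 bp this share was 62.4%, 7.56 points above YmA-dep, and passed (adjusted exact p = 0.0269). With ends of protein-coding genes only, the share inside a gene was -0.432 points from YmA-dep. Counting protein-coding genes only as holding a site, it was 58.8%. With 1 site per host gene, the end site share was -0.176 points from YmA-dep. With 2500 or 500 bp for members and for ends, hosts of 21.2% or 7.08% of members had an end site, and of 11.7% or 5.24% a CTD-ind one. A neighbour within 5 or 25 kb was found for 24.1% or 55.7%, and a cluster for 6.68% or 34.4%. At 5 kb the differences from YmA-ind were 2.54 and 1.27 points. Within 1000 bp of an internal start lay 5.36%. Within 10 kb, list counts were 2 (surface), 1 (recombination) and 4 (BAF). The core was in 68% of internal and 55.6% of gene start windows. No paired analysis was possible because 1 library had a file and no test compared samples. With no depth or score, weak and strong sites could not be told apart, and no left-out replicate could be tried.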
